A study of Mus musculus with 6 samples.

Results

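The 10 genes described here encode the antigen-presenting molecules of the major histocompatibility complex (MHC) and the proteins that load or switch them on. They were chosen by name, 6 of class II (H2-Aa, H2-Ab1, H2-Eb1, H2-DMa, Cd74 and Ciita) and 4 of class I (H2-K1, H2-D1, B2m and Tap1), out of 18193 genes that the arrays represented by probe sets of 1 gene. They held 33 such probe sets, 14 of class II and 19 of class I, and the probe set with the highest mean over all arrays stands for each gene. RNA came from CD31-sorted mammary endothelial cells of FVB/N mice aged 9 weeks, 3 samples in which Fsp-cre had deleted Ets2 in fibroblasts (PyMT;Fsp-cre;Ets2db/loxP, called deleted) and 3 without the recombinase (PyMT;Ets2db/loxP, called control). All 6 carried the PyMT oncogene, 1 loxP allele of Ets2 and 1 conventional knockout allele (db) that targets its DNA-binding domain, so the sorted cells of both groups lacked that copy. Cre was driven by the promoter of fibroblast specific protein 1, which some macrophages also use, and whether any sorted cell carried the deletion was not tested. The source field of all 3 control samples states that their epithelium had no oncogene, which conflicts with the PyMT in their titles and genotype. The genotype was followed here, and were the source field right, the oncogene and the deletion could not be told apart. The comparison asked how Ets2 in tumor fibroblasts bears on gene expression in the neighboring endothelium. Values are RMA signals on the log2 scale, where 1 unit is a factor of 2, and a negative difference means a lower mean in deleted samples.

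Ets2 itself read 14.43, 14.30 and 14.50 in deleted arrays and 14.48, 14.41 and 14.26 in control arrays, which checks no label because the deletion was aimed at other cells. All 10 endothelial markers were bright, with mean signals between 11.03 and 13.16. Epithelial markers were bright as well, with 8 genes between 10.49 and 13.83, so the signals cannot be read as those of endothelial cells alone. In a bulk sample, fewer cells of a type and less RNA per cell cannot be told apart. Control replicate 3 stood apart from the other 5 arrays. It had the lowest endothelial score, the highest macrophage score and the widest gap between 3' and 5' probe sets of the array controls (1.67 for beta-actin, against 0.99 to 1.29 in the others, and 1.31 for Gapdh, against 0.75 to 1.01). The class and list medians below, and the brightest probe set of each gene, are therefore given with and without it.

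Class I molecules, made of a heavy chain such as H2-K1 or H2-D1 and the light chain B2m, sit on nearly all nucleated cells, endothelium included, and show peptides from inside the cell to CD8 T cells. Tap1 is a subunit of the transporter that carries those peptides to them. Class II molecules pair an alpha chain (H2-Aa) with a beta chain (H2-Ab1), or the beta chain H2-Eb1 with its own partner, and show peptides from outside the cell to CD4 T cells. Cd74, the invariant chain, guards the groove until H2-DMa and its partner exchange the guard for a peptide. Macrophages, dendritic cells and B cells make class II constitutively, and endothelial cells make it under interferon-gamma, in each case through Ciita, the master coactivator of class II genes.

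The class II and class I promoters carry shared control boxes, which is why 5 of them are shown. Of the 10 genes, 7 matched a promoter in the RefSeq table of build GRCm38.p6 (strain C57BL/6J, whose MHC haplotype differs from that of FVB/N). Each line gives the 200 bases before the annotated start, 5' to 3' on the gene's strand. Capitals mark the letters of 5 words, searched on both strands. They are ATTGG (core of the Y box), GCAAC (core of the X1 box), TGACG (core of the X2 box), GGGGATT (a kappa B word) and GAANNGAAA (an interferon response core).
H2-Aa, chr17:34287824-34288023, minus strand: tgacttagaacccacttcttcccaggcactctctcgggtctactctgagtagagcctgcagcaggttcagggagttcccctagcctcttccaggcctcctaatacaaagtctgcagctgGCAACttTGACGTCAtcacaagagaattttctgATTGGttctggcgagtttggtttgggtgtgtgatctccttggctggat
H2-Eb1, chr17:34305667-34305866, plus strand: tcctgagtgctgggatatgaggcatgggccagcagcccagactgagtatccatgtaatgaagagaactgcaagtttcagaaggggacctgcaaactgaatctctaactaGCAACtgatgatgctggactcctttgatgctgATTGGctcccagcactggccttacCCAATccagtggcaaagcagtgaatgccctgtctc
H2-K1, chr17:34000348-34000547, minus strand: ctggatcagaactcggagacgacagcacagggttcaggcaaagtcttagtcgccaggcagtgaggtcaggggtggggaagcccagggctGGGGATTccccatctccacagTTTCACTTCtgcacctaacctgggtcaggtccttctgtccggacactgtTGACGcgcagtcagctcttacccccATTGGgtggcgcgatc
H2-D1, chr17:35262894-35263093, plus strand: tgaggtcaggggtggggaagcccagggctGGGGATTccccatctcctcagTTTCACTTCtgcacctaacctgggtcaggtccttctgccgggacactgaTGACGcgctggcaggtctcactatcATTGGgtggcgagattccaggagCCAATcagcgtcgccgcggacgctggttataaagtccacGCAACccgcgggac
B2m, chr2:122147487-122147686, plus strand: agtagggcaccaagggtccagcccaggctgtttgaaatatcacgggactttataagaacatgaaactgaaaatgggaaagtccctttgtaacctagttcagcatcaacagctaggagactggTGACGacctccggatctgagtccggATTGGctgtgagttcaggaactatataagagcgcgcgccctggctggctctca

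In both class II promoters shown, GCAAC was followed on the gene's strand by ATTGG, after 28 bases in H2-Aa and after 27 bases in H2-Eb1. Of all 32851 promoters in the table, 0.344% held this pair with 20 to 40 bases between its words. The capitals TGACGTCA in H2-Aa are overlapping matches of TGACG, one on each strand. H2-K1 and H2-D1 were alike along 139 bases, of which 127 (91.4%) were identical without a gap, and both held the kappa B word, present in 2.21% of promoters, upstream of the interferon word, present in 5% of them, and then TGACG and ATTGG. B2m held TGACG (15.7% of promoters) upstream of ATTGG (29.3%). GCAAC was present in 25.2% of promoters. In the windows of the other matched genes, Tap1 held TGACG and GCAAC. H2-DMa, also of class II, held GCAAC before its first start and ATTGG before its second, and so the pair before neither. On chromosome 17 the genes lie in the order H2-K1 (33996012 to 34000619), H2-DMa (34119693 to 34139101), Tap1 (34187556 to 34197225), H2-Ab1 (34263227 to 34269418), H2-Aa (34282744 to 34287823), H2-Eb1 (34305867 to 34316674) and H2-D1 (35263094 to 35267497), whereas B2m lies on chromosome 2 (122147687 to 122153082) and Ciita on chromosome 16 (10480014 to 10531064). The words were chosen with the sequences known, and these matches are letters in a window that say nothing of binding in these cells.

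The 6 class II genes all had a lower mean in the deleted samples, and most of the gap went with control replicate 3 alone. Their median difference was -0.16, against 0.00 over all genes, and 49.1% of all genes had a lower mean in the deleted samples. Without control replicate 3 the median was -0.01, with 3 of the 6 genes lower. None of the 6 genes had groups without overlap (6.07% of all genes did), none had an unadjusted p under 0.05 in limma (1.79% did), and control replicate 3 was the highest of the 6 arrays in 4 of them, as in 26.9% of all genes.

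H2-Ab1, the beta chain of the I-A molecule, read 10.17, 10.29 and 10.14 in deleted arrays, against 10.30, 10.28 and 11.44 in control arrays. The 3 deleted arrays and control replicates 1 and 2 spanned 0.16 in all, and control replicate 3 lay 1.20 above their mean. The difference was -0.47 (SE 0.31, 95% interval -1.21 to 0.26), a ratio of 0.72, and it became -0.09 without that array.

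Cd74, the invariant chain, read 11.46, 11.66 and 11.19 in deleted arrays, against 11.54, 11.43 and 12.31 in control arrays. Here too control replicate 3 was the highest array, 0.86 above the mean of the rest, and the lowest array was deleted replicate 3. The difference was -0.33 (SE 0.26, 95% interval -0.94 to 0.29) and -0.05 without control replicate 3.

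H2-Eb1, the beta chain of the I-E molecule, read 6.70, 6.65 and 6.64 in deleted arrays, against 6.71, 6.57 and 7.33 in control arrays. It showed the same shape as H2-Ab1 at a dim signal, below the median of all probe sets (7.03). Its difference of -0.21 (SE 0.21) turned to 0.02 without control replicate 3.

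H2-Aa, the alpha chain that pairs with H2-Ab1, read 10.73, 10.95 and 10.70 in deleted arrays, against 11.00, 10.78 and 10.93 in control arrays. The groups overlapped and control replicate 3 did not stand out, so the difference of -0.11 (SE 0.14) stayed close at -0.10 without it.

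H2-DMa, which helps to exchange the invariant chain peptide, varied most within the deleted group, at 8.55, 7.72 and 7.36, against 7.56, 7.86 and 8.26 in control arrays. Deleted replicate 1 was the highest array of all and deleted replicate 3 the lowest, a spread of 1.19 inside 1 group beside a difference of -0.02 (SE 0.33). The difference was -0.35 without deleted replicate 1, 0.24 without deleted replicate 3 and 0.17 without control replicate 3.

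Ciita, the coactivator that class II transcription depends on, read 6.03, 5.77 and 5.99 in deleted arrays, against 5.84, 5.90 and 6.31 in control arrays. The gene was dim in every array, with control replicate 3 highest, and a dim probe set shows less than the full size of a change. Its difference of -0.08 (SE 0.18) turned to 0.06 without control replicate 3.

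**Figure D1:**
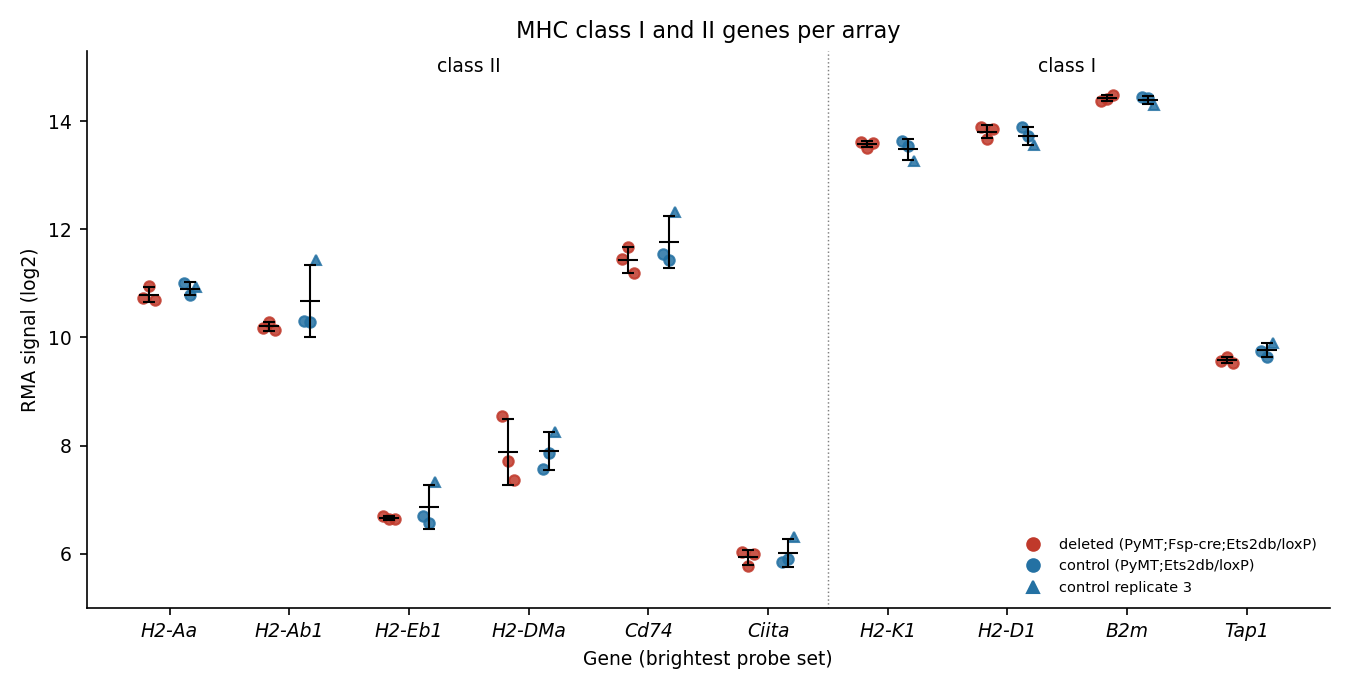
RMA signal (log2, vertical axis) of the brightest probe set of each gene in every array, with deleted samples in red on the left, control samples in blue on the right, control replicate 3 as a triangle, and the group means drawn in black with their SD (n = 3 each). In H2-Ab1, Cd74 and H2-Eb1 the triangle lies above all other points, at 11.44, 12.31 and 7.33, while in H2-K1, H2-D1 and B2m it lies below them.

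The other class II probe sets did not all share that shape. Of the 14 class II probe sets 13 were lower in the deleted samples (47.3% of all probe sets were), and control replicate 3 was the highest array in 10. Without control replicate 3, 8 of the 14 were lower and the median went from -0.12 to -0.04. A second H2-Aa probe set read 9.37, 9.87 and 9.81 in deleted arrays, against 9.86, 9.96 and 10.64 in control arrays. Its difference of -0.47 (SE 0.25) was as large as that of H2-Ab1 and stayed at -0.23 without control replicate 3, and it had the smallest unadjusted p of the 33 probe sets (0.102, limma). The brightest H2-Aa probe set, at -0.11, did not show a gap of that size. The remaining H2-Aa probe sets, one of them very dim, differed by -0.23 and -0.11. The dimmer H2-Ab1 probe sets differed by -0.09 and -0.12, a fraction of the -0.47 of the brightest. The second H2-DMa probe set, at -0.22, again spread widely within the deleted group, with 6.44 in replicate 1 and 5.36 in replicate 3, and was highest in control replicate 3 at 6.62. The dimmer Ciita probe sets differed by 0.11 and -0.04.

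Class I genes were bright and nearly level between the groups. Their median difference was 0.06, with 3 of 4 genes higher, and -0.01 without control replicate 3, where all 4 were lower. The heavy chains and the light chain had control replicate 3 as their lowest array, the reverse of its place in class II (22.4% of all genes had it lowest).

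H2-K1, a classical heavy chain, read 13.62, 13.51 and 13.59 in deleted arrays, against 13.63, 13.54 and 13.26 in control arrays. Apart from control replicate 3 these arrays spanned 0.13. The difference was 0.09 (SE 0.15, 95% interval -0.26 to 0.45) and -0.02 without that array.

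H2-D1, the second classical heavy chain, read 13.89, 13.68 and 13.85 in deleted arrays, against 13.90, 13.72 and 13.57 in control arrays. The groups overlapped through most of their range. The difference was 0.08 (SE 0.15, 95% interval -0.27 to 0.43) and -0.003 without control replicate 3.

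B2m, the light chain common to all class I molecules, read 14.38, 14.40 and 14.49 in deleted arrays, against 14.44, 14.43 and 14.30 in control arrays. It varied least of the 10 genes, and its difference of 0.03 had an SE of 0.13 and a 95% interval from -0.27 to 0.34. It was -0.01 without control replicate 3. Its second probe set differed by 0.10.

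Tap1, the peptide transporter subunit, read 9.56, 9.64 and 9.54 in deleted arrays, against 9.74, 9.64 and 9.90 in control arrays. It was the only one of the 33 probe sets whose groups did not overlap (6.44% of all probe sets, and 2.7% of genes in the lower direction), narrowly so between deleted replicate 2 and control replicate 2. The difference was -0.19 (SE 0.14, 95% interval -0.51 to 0.14), with an exact two-sided permutation p of 0.1, the smallest that 3 arrays against 3 allow. It stayed between -0.25 and -0.12 with any array left out, at -0.12 without control replicate 3, while the 3 dimmer Tap1 probe sets differed by -0.01, -0.04 and -0.004.

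Over all 19 class I probe sets the differences with all arrays were small and mostly upward. In the deleted samples 13 were higher and 6 lower (47.3% of all probe sets were lower), and control replicate 3 was the lowest array in 13. Without control replicate 3, 9 of the 19 were lower and the median went from 0.08 to 0.0002. The widest was an H2-K1 probe set that read 11.80, 11.39 and 11.67 in deleted arrays, against 11.50, 11.43 and 10.89 in control arrays, a difference of 0.35 (SE 0.21) that became 0.16 without control replicate 3. The other H2-K1 probe sets differed by 0.17 and 0.22. The 8 dimmer H2-D1 probe sets lay between -0.12 and 0.27, and the one at 0.27 had a mean signal of only 4.19. A probe set annotated to both H2-K1 and H2-D1 differed by 0.27 (SE 0.24), one shared by H2-K1 and H2-Q5 by 0.04, and one shared by H2-D1, H2-Q2 and Gm38417 by 0.17. By their names 12 of the 19 class I probe sets (ending in _x_at) hold probes that can bind related transcripts, and the heavy chains of this family are near-identical in parts, so the signals of H2-K1 and H2-D1 cannot be fully separated. FVB/N alleles may bind the probes less well than the alleles they were designed on, equally in both groups.

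**Figure D2:**
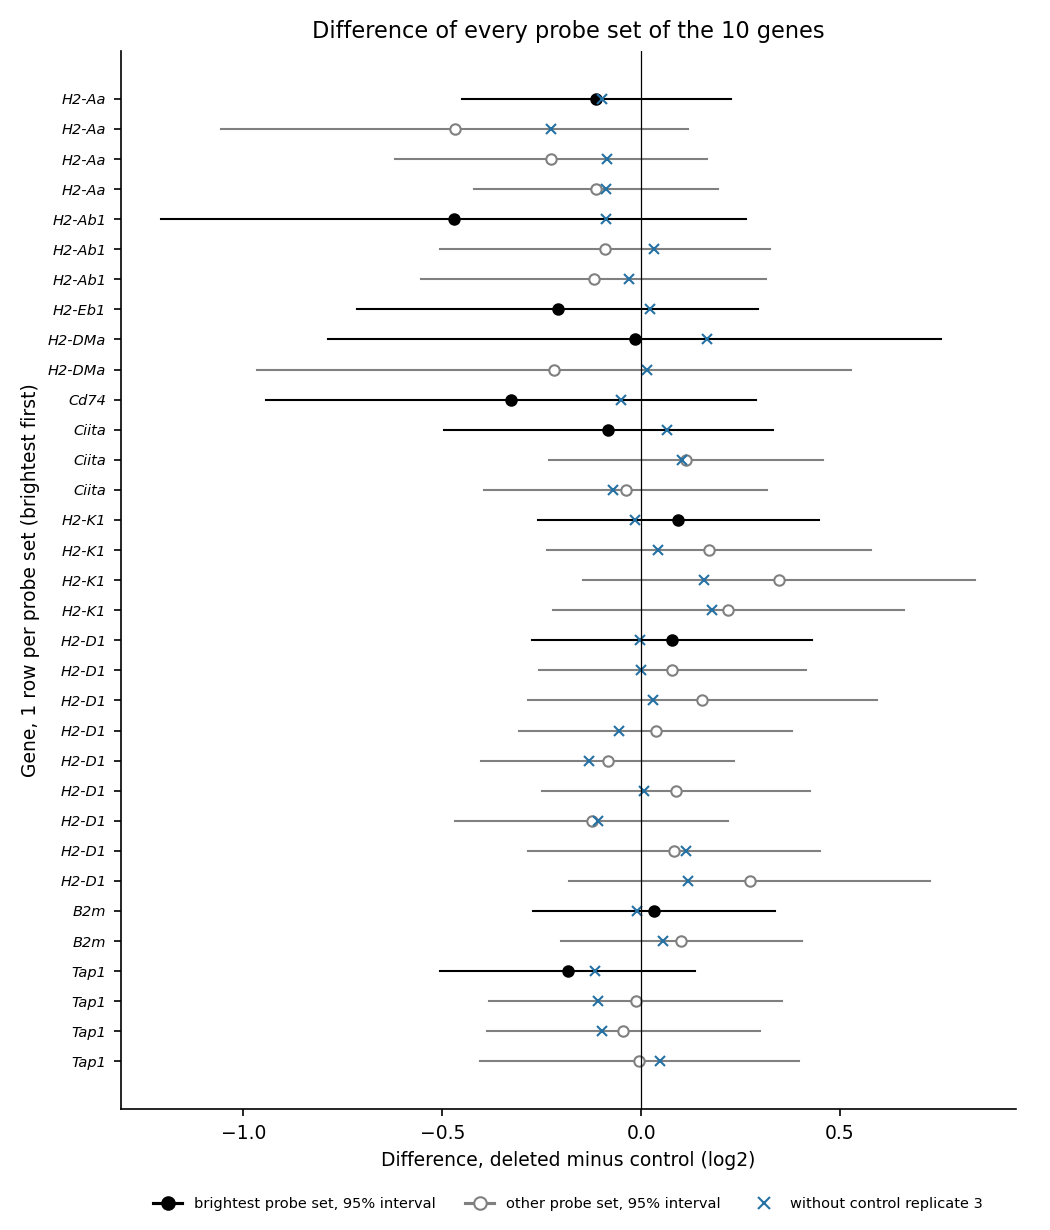
Difference between deleted and control samples (log2, horizontal axis) of all 33 probe sets, 1 row each, with 95% intervals from limma, filled for the brightest probe set of a gene and open for the others. Every interval crosses 0. The crosses mark the value without control replicate 3 and lie closer to 0 for the brightest probe sets of H2-Ab1 (-0.09), Cd74 (-0.05), H2-K1 and H2-D1.

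In limma's moderated test none of the 33 probe sets passed at an adjusted p under 0.05 over all 45037 probe sets, where 0% passed, and the smallest adjusted p was 0.9999. None of the 33 reached an unadjusted p under 0.05 (2.07% of all probe sets) or passed the study's own rule, which asks for that p together with more than a 2-fold change (0.129%). For 9 of the 10 genes the 95% interval lay within a factor of 2 in either direction, and for H2-Ab1 it reached -1.21.

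**Figure D3:**
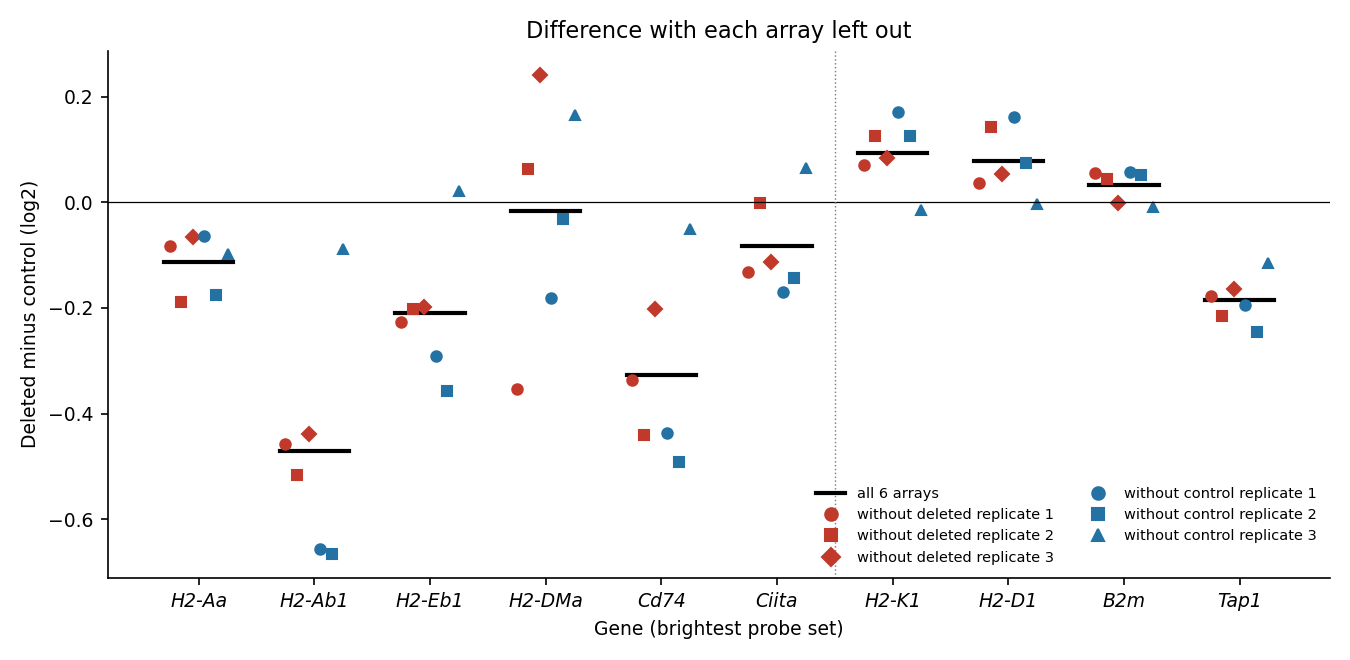
Difference between deleted and control samples (log2, vertical axis) of the brightest probe set of each gene, with all 6 arrays (black line) and with 1 array left out (red for a deleted array, blue for a control array). Leaving out control replicate 3 (triangle) brings H2-Ab1 to -0.09 and Cd74 to -0.05, while H2-DMa moves most with deleted replicates 1 and 3, to -0.35 and 0.24.

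Genes that work with class II molecules showed no shared direction. Of 12 measured, 5 were lower and 7 higher, with a median of 0.04 (-0.05 without control replicate 3), and 0 passed limma's test in either direction, adjusted or unadjusted. Ctss, the protease that trims the invariant chain, read 11.32, 11.60 and 11.34 in deleted arrays, against 11.56, 11.84 and 12.28 in control arrays, a difference of -0.47 (SE 0.21) and -0.28 without control replicate 3. Ifi30, a lysosomal thiol reductase, differed by -0.43 and by -0.24 without it. H2-Ob, a chain of the regulator H2-O, differed by -0.44, which became -0.01 without it. Cd80, a costimulatory ligand, was a dim gene without overlap between the groups, at 4.90, 5.05 and 5.13 in deleted arrays, against 4.86, 4.86 and 4.89 in control arrays.

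Genes of class I peptide supply leaned slightly upward. Of 14 measured, 12 were higher and 2 lower (50.9% of all genes were higher), with a median of 0.08, and 0 passed limma's test in either direction at an adjusted or an unadjusted p under 0.05. Without control replicate 3 the median was 0.06, with 5 of the 14 lower. Psmb9, an immunoproteasome subunit, differed by 0.35 (SE 0.24) and by 0.14 to 0.49 with any array left out. Pdia3, a chaperone of the peptide-loading complex, read 12.77, 12.87 and 12.80 in deleted arrays, against 12.72, 12.74 and 12.25 in control arrays. It was without overlap, with a difference of 0.24 that became 0.08 without control replicate 3. Psmb8, another immunoproteasome subunit, differed by 0.15, while Tap2, the partner of Tap1, differed by 0.03.

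Among the non-classical class I genes 9 of 17 had a probe set of their own, 6 higher and 3 lower, with a median of 0.03 and 0 passing limma's test in either direction. Without control replicate 3 the median turned to -0.03, with 6 of the 9 lower. H2-M3, which presents bacterial formyl peptides, read 9.86, 9.45 and 9.65 in deleted arrays, against 9.30, 9.35 and 9.27 in control arrays. The groups did not overlap, and the difference of 0.35 (SE 0.15, unadjusted p = 0.0549, limma) stayed between 0.24 and 0.45 with any array left out. H2-Q2 differed by -0.45 with deleted replicate 1 far below the rest at 4.91, and Mr1, which presents vitamin metabolites, by 0.13, which turned to -0.08 without control replicate 3.

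The regulators of MHC genes and the interferon genes had a median of 0.10, with 19 of 26 higher and 7 lower, and 0 passed limma's test in either direction at an adjusted or an unadjusted p under 0.05. Without control replicate 3 the median was 0.07. Irf1, which drives class I and Ciita transcription, read 11.61, 11.29 and 11.75 in deleted arrays, against 11.44, 11.27 and 11.09 in control arrays, a difference of 0.28 (SE 0.18) with overlap between the groups. Irf8 differed by 0.29 and Jak1, a kinase of the interferon receptors, by 0.34, which became 0.12 without control replicate 3. Ifng was without overlap at a dim signal, 4.88, 4.91 and 4.69 in deleted arrays and 4.62, 4.32 and 4.64 in control arrays. Nlrc5, the coactivator of class I genes, differed by -0.20 and by 0.02 without control replicate 3, and Rfx5, a subunit of the factor that binds the X box, by -0.07.

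Markers of macrophages, B cells and dendritic cells, which make class II constitutively, did not share a direction. All 10 macrophage markers had a lower mean in the deleted samples, with a median of -0.73 (-0.54 without control replicate 3, again 10 of 10). Their summed log2 signal ranged from 80.4 to 86.6 in deleted arrays and from 87.8 to 95.7 in control arrays, 5 of the 10 had groups without overlap (Cd68, C1qa, C1qc, Mrc1 and Cd163, against 6.07% of all genes), 5 had an unadjusted p under 0.05 in limma (1.79% of all genes), and 0 an adjusted one. One of them, C1qb, also passed the study's own rule. Csf1r, the receptor macrophages depend on, read 10.29, 10.56 and 9.55 in deleted arrays, against 10.42, 10.48 and 12.11 in control arrays, and so had control replicate 3 on top, as H2-Ab1 and Cd74 did. Its difference of -0.87 became -0.32 without that array. Not all macrophage markers had that shape, as C1qa was highest in control replicate 1 and C1qc in control replicate 2. C1qb differed by -1.30, Mrc1 by -0.93 and Adgre1, which encodes F4/80, by -0.91, and these stayed at -0.85, -0.65 and -0.63 without control replicate 3.

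B cell markers were dim, with 1 of 9 at or above the median signal, and their summed log2 signal ranged from 52.6 to 54.3 in deleted arrays and from 52.5 to 59.9 in control arrays. Ms4a1, which encodes CD20, read 4.67, 5.67 and 5.82 in deleted arrays, against 5.87, 5.21 and 7.44 in control arrays, and Cd22 read 5.36, 5.29 and 5.06 in deleted arrays, against 5.45, 5.08 and 7.30 in control arrays. Both were thus highest in control replicate 3, and their differences of -0.79 and -0.71 became -0.16 and -0.03 without it. Cd79a, a defining subunit of the B cell receptor, differed by 0.15 and was not raised to that extent, at 6.70 in control replicate 3 against 5.72 to 6.59 in the other arrays. The B cell median was -0.29 and -0.03 without control replicate 3. Fcmr differed by -0.52.

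Dendritic cell markers overlapped between the groups, with a summed log2 signal from 64.7 to 67.8 in deleted arrays and from 64.9 to 66.7 in control arrays. Their median was 0.02, with 6 of 9 higher, and 0.22 without control replicate 3. Clec10a, which macrophages share, differed by -0.99 (-0.85 without that array) and was the 1 gene of the list with an unadjusted p under 0.05 in limma (0.0142). Ccr7 differed by 0.72, which became 0.43 without that array, and Flt3 by 0.25. Itgax, which encodes CD11c, read 7.63, 7.05 and 6.42 in deleted arrays, against 6.53, 6.80 and 7.70 in control arrays. Its difference was 0.02 and became 0.37 without control replicate 3. Pan-leukocyte markers had a median of -0.41 (-0.19 without control replicate 3), with a summed log2 signal from 74.5 to 80.6 in deleted arrays and from 77.9 to 81.6 in control arrays. In that list Ptprc, which encodes CD45, differed by -0.43, Laptm5 by -0.51 and Cd52 by -0.48, and these became -0.17, -0.22 and -0.12 without control replicate 3. Cd53, the 1 gene of the list without overlap (6.07% of all genes), differed by -0.38 and by -0.42 without that array. Cd48 differed by -0.80 (-0.71 without that array), with deleted replicate 1 far below the rest at 4.81. With any array left out its difference ranged from -1.40 to -0.06. No marker is at 0 in RMA values, and the part of these cells in the class II values was not tested.

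The remaining marker lists set the scale. T and NK cell markers had a median of 0.15 over 7 genes, 4 higher and 3 lower, with and without control replicate 3. Cd8a was at 0.51, Cd3g at 0.39 (0.15 without that array) and Nkg7 at 0.35. The 3 lower ones were Cd3d at -0.17, Cd247 at -0.08 and Cd4 at -0.04. Endothelial markers had a median of 0.15 (0.05 without control replicate 3), all 10 higher, with Pecam1, which encodes CD31, at 0.39, Esam at 0.30 and Emcn at 0.30. Without control replicate 3 these 3 were at 0.16, 0.03 and 0.07, and 4 of the 10 were lower. All 3 had their lowest signal in control replicate 3, as H2-K1, H2-D1, B2m and 22.4% of all genes did. Cdh5 and Tie1 were instead lowest in deleted replicate 2, and Egfl7 in control replicate 2. Epithelial markers had a median of -0.14, 7 lower and 1 higher (Epcam at 0.11). Krt5 was at -0.38, Cdh1 at -0.22 and Krt18 at -0.19. Without control replicate 3 the median was -0.05 and Krt5 was at -0.04. Fibroblast markers had a median of -0.48 (-0.47 without control replicate 3), 7 lower and 1 higher (Pdgfrb at 0.22). Dpt was at -0.72 and ranged from -1.02 to -0.28 with any array left out. Of these 8 markers 4 had groups without overlap (6.07% of all genes), Lum at -0.70, Pdgfra at -0.59, Col1a2 at -0.53 and Col1a1 at -0.38, and the first 3 of these had an unadjusted p under 0.05 in limma (0.00439, 0.0176 and 0.0141, against 1.79% of all genes). In limma none of the genes of these 4 lists had an adjusted p below 0.05.

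**Figure D4:**
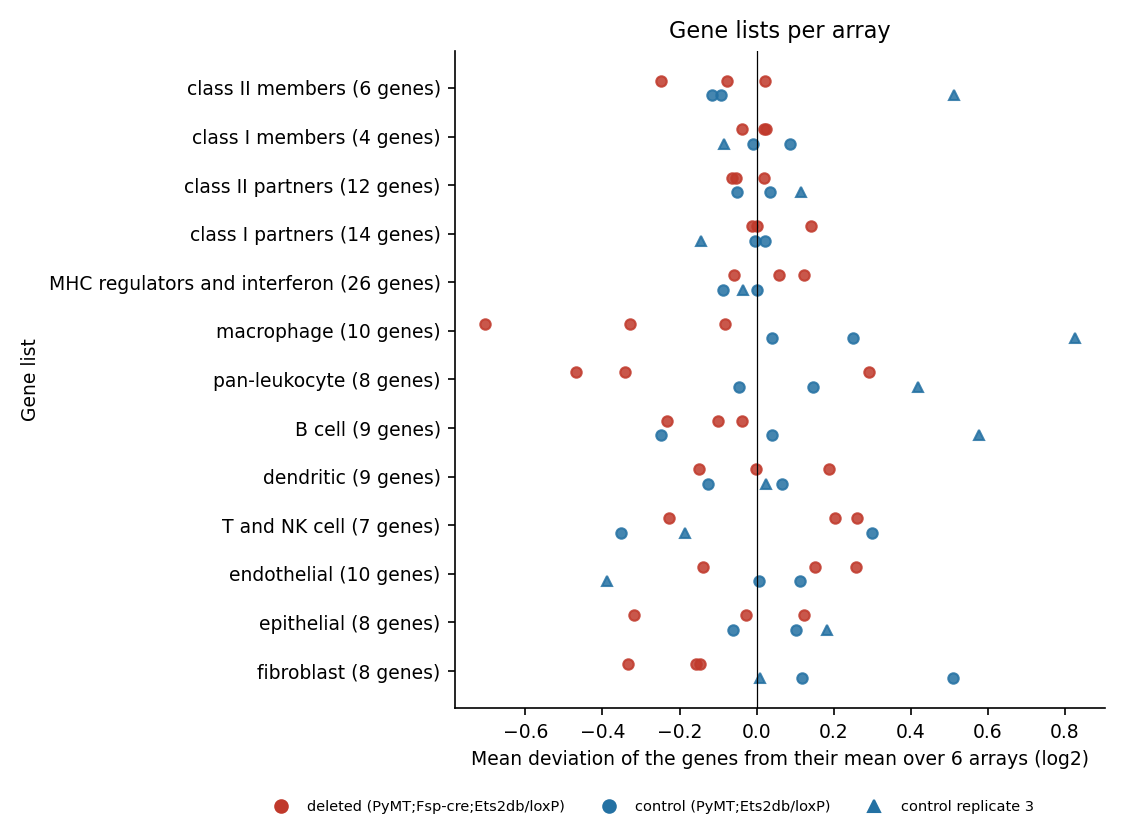
Mean deviation of the genes of each list from their mean over the 6 arrays (log2, horizontal axis), with deleted arrays in red above control arrays in blue and control replicate 3 as a triangle. For the class II genes 5 arrays lie between -0.25 and 0.02 and control replicate 3 at 0.51. For the macrophage list the groups are apart, from -0.71 to -0.08 in deleted arrays and from 0.04 to 0.83 in control arrays.

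The genes whose pattern over the 6 arrays was most like the mean profile of the 5 class II genes other than Ciita, among 11280 genes at or above the median signal, were Osbpl7, Anks1, Stk40, Usp10 and Plekhh1, with Pearson r of 0.996 to 0.998. Osbpl7 read 9.14, 9.04 and 8.55 in deleted arrays, against 8.98, 8.94 and 10.42 in control arrays, and each of the 5 had control replicate 3 as its highest array. For the 4 class I genes they were Sh2b3, Pcdh18, Gm29811, Agmo and Zfp982, with r of 0.996 to 0.999. Sh2b3 read 11.61, 11.47 and 11.64 in deleted arrays, against 11.82, 11.54 and 11.34 in control arrays, with control replicate 1 highest and control replicate 3 lowest. With 6 arrays and this many genes such values only describe shape.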

How the data were processed

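Amplified, biotin-labelled RNA of 6 CD31-sorted samples was read on Affymetrix mouse arrays, 1 per sample. The authors deposited log2 signals from RMA (robust multichip average), in which background is corrected, arrays are quantile normalized and probes are summarized. The RMA version was not given in the sources used here. Array medians lay between 7.02 and 7.07, so no scaling was added. Precision is limited by how few arrays there are, with a median 95% interval of 0.45 to either side.

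Of 45101 probe sets, 64 array controls were left out. In the platform annotation, 34945 had 1 gene, of which 34741 were matched by gene number to RefSeq for current symbols, 932 had several and 9160 none named here. Genes were represented by their brightest 1-gene probe set. The test was the two-sided moderated one of limma (version 3.58.1, under R 4.3.3), without covariates, adjusted by Benjamini-Hochberg over 45037 probe sets, and the fit was tested on simulated data. The members and lists were chosen with earlier results of these data known, and the promoter words with the sequences known. The named genes were all members, in each list those without overlap between the groups and the 3 with the largest difference, Ets2 and the 5 genes most like each class profile. Further genes (among them Tap2, Irf1, Csf1r, Nlrc5, Rfx5, Cd79a, Itgax and Ptprc) were chosen once their values had been seen. The study calls the samples biological replicates. No pair of arrays shared more than 0.218% of values. The alternatives tried were filtering at the median signal, another prior, array weights, the number in the animal identifier as a block, centring, a further quantile normalization, an unmoderated test, the mean of a gene's probe sets and each array left out.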

Additional observations from a re-analysis of the deposited data

How the results depend on the processing

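No probe set was called at an adjusted p under 0.05 in limma with all arrays, with the filter, another prior, array weights, the identifier block, centring, a further quantile normalization or 1 array left out, nor in the unmoderated test, and 934 had an unadjusted p under 0.05 in limma with all arrays. The mean of a gene's probe sets was not run for this count. The count past a fold change of 2 with an unadjusted p under 0.05 was 58 and became 15 with the filter at the median signal, 152 with array weights, 317 with the identifier block, 23 with the unmoderated test and 61 to 191 with 1 array left out. Nothing showed the numbers in the animal identifiers to mark a litter or day. The pairs of arrays that share a number, replicates 1 and replicates 2, had deviations that correlated at 0.17 and -0.02, and a block on them leaves deleted and control replicates 3 without weight. Under it the class II median was 0.03 and the class I median -0.04, and these differences changed sign: H2-Eb1 to 0.0334, H2-DMa to 0.42, Cd74 to 0.0730, Ciita to 0.0346, H2-K1 to -0.0253, H2-D1 to -0.0268 and B2m to -0.0439. With array weights H2-Eb1 turned to 0.0453 and Ciita to 0.0450, in a fit where control replicate 2 had a weight of 8.32 and the other arrays 0.38 to 0.99. H2-DMa turned to 0.000223 with centring and to 0.00450 with a further quantile normalization. With 1 array left out H2-Eb1 ranged from -0.36 to 0.0221, H2-DMa from -0.35 to 0.24, Ciita from -0.17 to 0.0649, H2-K1 from -0.0152 to 0.17, H2-D1 from -0.00326 to 0.16 and B2m from -0.00984 to 0.0564, while the class II median ranged from -0.28 to -0.01 and the class I median from -0.01 to 0.11. H2-Aa, H2-Ab1 and Tap1 kept their direction in all 13 alternatives. The cause of these turns was not tested. H2-Eb1 and Ciita were too dim for the filter and had no value with it. With the mean of a gene's probe sets the class medians were -0.22 and 0.07.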
